A study of Rattus norvegicus with 9 samples.

Results

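The genes described here encode the motors that walk on microtubules and actin, with the light and intermediate chains that go with them. They were taken from the tables by symbol, as the kinesin (Kif, Kifc), kinesin light chain (Klc), cytoplasmic dynein (Dync), dynein light chain (Dynl), axonemal dynein heavy chain (Dnah) and unconventional myosin (Myo) genes. The rule found 91 genes among the 32623 in the tables, each in a single row. Of these, 85 had enough reads to be tested, among 15321 tested genes in all. The 6 that were too low were Dnah6, Kif12, Kif28p, Kif2b, Myo1a and Myo3b, and Kif2b was listed at 0 reads in every library.

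RNA was sequenced from wild-type rat brain cells labelled as oligodendrocyte precursor cells (OPCs), the dividing glia from which myelin-forming oligodendrocytes arise. The cells were kept for 5 days in differentiation medium in 3 groups of 3 libraries, basal, 1 µM bavisant and 10 µM bavisant, and bavisant is known as an antagonist of the histamine H3 receptor. The lower dose is written as 1 mM in a protocol text and as 1 µM in the labels of treatment, and 1 µM is used here. Each group holds a library tagged P11, a library tagged P13 and a library tagged P14. The labels do not say what P marks, nor whether the libraries came from separate cultures or animals, and p-values then measure only the spread between these libraries, which may be technical. In bulk RNA of this kind, fewer cells of a type and less RNA per cell cannot be told apart.

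Kinesins mostly carry cargo towards the plus ends of microtubules, cytoplasmic dynein carries it back towards the minus ends, and myosins work on actin. Another set of kinesins builds the mitotic spindle and is made mostly, though not only, by dividing cells, while axonemal dyneins drive the beat of motile cilia. In oligodendrocytes the microtubule motors carry RNA granules, Mbp mRNA among them, out along the processes to the forming myelin.

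Depth ran between 23919373 and 43059921 estimated counts a library, and the 91 motor genes together took 0.825% to 0.993% of them. The labelled cell type was checked against its markers. Pdgfra, a receptor that defines OPCs, lay between 91.9 and 267 TPM (transcripts in each 1000000, a level scaled for gene length) over the 9 libraries. Sox10, a factor of the whole oligodendrocyte lineage, lay between 509 and 642 TPM. Among myelin genes of maturing oligodendrocytes, Mag lay between 1280 and 2612 TPM, while Mog, a late myelin surface protein, lay between 34.1 and 172 TPM. Genes of microglia and astrocytes were present as well, with the microglial Csf1r between 51.1 and 95.2 TPM and the astrocytic Aqp4 between 80.9 and 192 TPM. So were genes of neurons, whose 16 markers summed to between 341 and 694 TPM. The 15 vascular, mural and fibroblast markers summed to between 145 and 640 TPM. Libraries sharing a P number deviated from their group means together, so each comparison of doses is given without and with the P number as a term in the model. The P11 libraries stood apart from the others, and their values are set out separately after the doses.

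Per unit of length, the most abundant motor transcripts were small dynein light chains, though not all of these ranked high. Dynlt3 stood at rank 27 and Dynlrb2 at rank 51 in the order by mean TPM. Dynll1, the LC8 light chain that dynein shares with many other complexes, averaged 1366 ± 184 TPM in basal cells, 1488 ± 179 TPM at 1 µM and 1474 ± 296 TPM at 10 µM (SD, n = 3 each). It made up 25% of the summed TPM of the 91 genes, and with Dynlrb1, Dynlt1 and Dynll2 it made up 48.6%. Dynlrb1, a roadblock light chain that dimerises at the base of the dynein complex, came next at 547 to 648 TPM over the libraries, and Dynlt1, a Tctex-type light chain, followed at 343 to 453 TPM. The ranges of Dynll1 and Dynlrb1 did not overlap, nor did those of Dynlrb1 and Dynlt1. The only other neighbours in the order with separate ranges were Dync1li2 and Dync1i2, and the other 87 of 90 neighbouring pairs overlapped.

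In the order by mean TPM, Dynll2 was followed by the transport motors. Klc1, a light chain through which kinesin-1 binds cargo, lay between 297 and 328 TPM. Kif1b, a kinesin-3 that zebrafish need to place Mbp mRNA in their oligodendrocyte processes, lay between 190 and 365 TPM, and its relative Kif1a, which carries synaptic vesicle precursors in neurons, between 186 and 299 TPM. Kif5b, the widely expressed kinesin-1 heavy chain, lay between 115 and 184 TPM. Dync1h1, the heavy chain that carries the motor of cytoplasmic dynein, lay between 42.1 and 107 TPM. Klc1, Kif1b and Kif1a overlapped one another in level, while Kif5b lay wholly below these 3 and Dync1h1 wholly below Kif5b.

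The class I myosins, which tie membranes to actin, were led by Myo1d, a membrane-binding motor, at 58.8 to 96.6 TPM. Of the other unconventional myosins the highest were Myo9b, a class IX myosin, at 87.4 to 132 TPM, and Myo6, which moves towards the minus end of actin, at 71.1 to 111 TPM. The mitotic kinesins summed to between 75.5 and 206 TPM and the 10 axonemal dynein heavy chains to between 3.46 and 5.61 TPM. The highest axonemal heavy chain, Dnah17, reached 3.31 TPM. In all, 48 of the 91 genes averaged at least 10 TPM, 67 at least 1 TPM, and 5 had under 10 reads in every library.

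**Figure D1:**
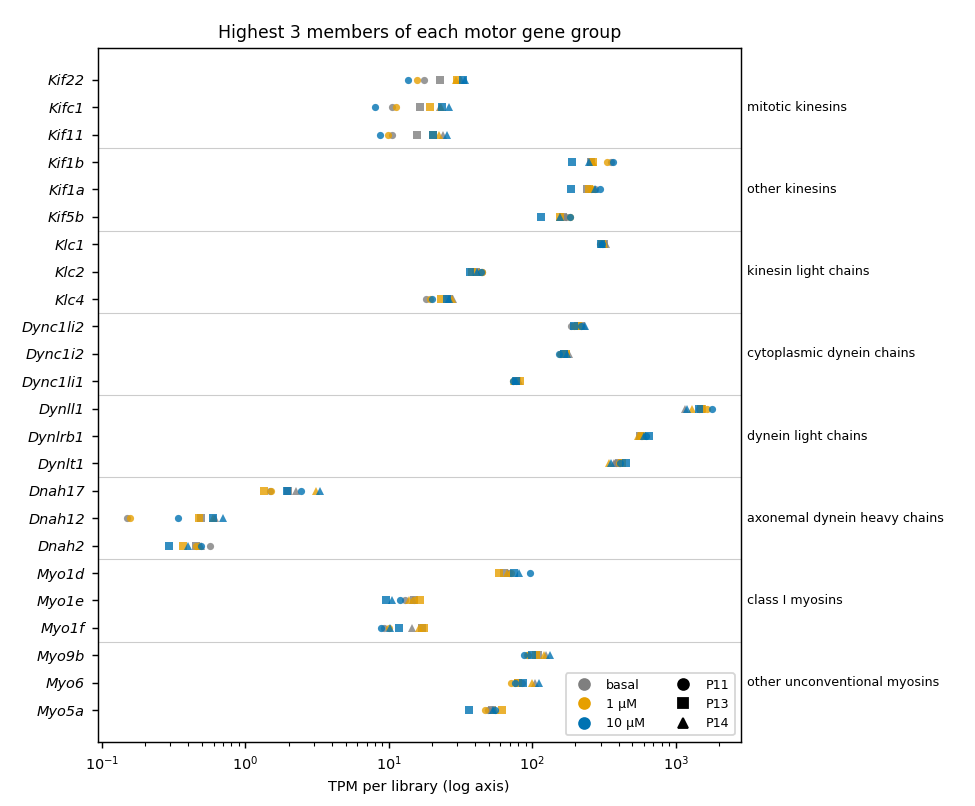
TPM (log axis) of the 3 highest genes of each of 8 motor gene groups, 1 point a library, coloured by dose and shaped by P number. Dynein light chains sit at the top, led by Dynll1 at 1155 to 1785 TPM, and axonemal dynein heavy chains at the bottom, while the mitotic kinesins spread with the P number.

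With 10 µM bavisant against basal, 5 motor genes changed in the fit with the P number, Myo1d, Kif17, Kif19 and Dynlrb1 being higher and Dnah11 lower in all 3 P numbers. None of them passed the edgeR quasi-likelihood test with Benjamini-Hochberg adjustment without the P number. In that fit 0 of 85 motor genes and 0% of the 15321 genes were called, while 5 motor genes and 808 genes had an unadjusted p under 0.05. DESeq2 called 64 genes in the same design and limma on TPM called 0, with no motor gene in either. With the P number as a term, these 5 of 85 motor genes (5.88%) were called against 3.96% of all genes tested. By direction, 4 were higher (4.71%) against a background of 1.32%, and 1 was lower (1.18%) against 2.64%. Over both directions together, the share of motor genes called was near that of genes at large. The shares by direction rest on few genes. With all P11 libraries left out none of the 5 was called, with adjusted p of 0.0743 for Myo1d, 0.0946 for Kif17, 0.0806 for Kif19, 0.132 for Dynlrb1 and 0.162 for Dnah11. The median log2 fold change was -0.01 over the motor genes and -0.01 over all genes.

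Myo1d had 319, 248 and 251 CPM (counts scaled to a library of 1000000 with TMM factors) in the 10 µM libraries P11, P13 and P14, against 222, 195 and 205 CPM in the basal ones. All 3 treated libraries were above all 3 basal libraries. Its log2 fold change was 0.40 ± 0.13 (SE, n = 3 a group, adjusted p = 0.877) without the P number and 0.39 ± 0.05 (adjusted p = 0.0164) with it. The call with the P number was lost when any of the 3 basal libraries was left out, with an adjusted p of up to 0.0753. Over the 9 other settings that kept the P number, the adjusted p ran from 4.96e-07 to 0.0743.

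Kif17, a kinesin-2 that carries receptors along neuronal dendrites and enters cilia, had 27.5, 24.8 and 29.0 CPM at 10 µM, against 22.6, 17.0 and 23.4 CPM in basal cells. The groups did not overlap. The log2 fold change was 0.38 ± 0.07 with the P number (adjusted p = 0.0315), and 0.37 ± 0.15 without it (adjusted p = 0.921). The call held in 2 of the 9 fits that left out a library, those without 1 µM P13 or 10 µM P11, and the adjusted p reached 0.141 in the others. Over 9 other settings it ran from 0.00964 to 0.0967.

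Kif19, a kinesin that shortens microtubules at the tips of motile cilia in mice, had 10.5, 12.1 and 6.90 CPM at 10 µM, against 8.60, 7.20 and 4.74 CPM in basal cells. The groups overlapped, because both P14 libraries were low, but the treated library was the higher in each P number. The log2 fold change was 0.53 ± 0.11 with the P number (adjusted p = 0.0367) and 0.52 ± 0.31 without it (adjusted p = 1). Leaving out a library ended the call in 7 of 9 fits, all but those without 1 µM P13 or 10 µM P11, with an adjusted p of up to 0.176. Over 9 other settings it ran from 0.0203 to 0.110. The annotation places Kif19 over Btbd17 on the same strand, so reads of the pair could be shared. Btbd17 had a log2 fold change of -0.44 ± 0.14 (adjusted p = 0.111). Whether reads were shared between Kif19 and Btbd17 was not tested.

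Dynlrb1 had 197, 208 and 179 CPM at 10 µM, against 174, 166 and 161 CPM in basal cells, with no overlap. The change was small, a log2 fold change of 0.22 ± 0.05 with the P number (adjusted p = 0.0429) and 0.22 ± 0.08 without it (adjusted p = 0.892). It was lost whichever single library was left out, with an adjusted p between 0.0536 and 0.189, and over 9 other settings it ran from 0.0108 to 0.132.

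Dnah11, an outer-arm heavy chain of motile cilia, had 3.56, 2.26 and 0.859 CPM at 10 µM, against 7.57, 3.79 and 1.74 CPM in basal cells. Levels fell steeply across the P numbers, so the groups overlapped, but the treated library was the lower in each P number. The log2 fold change was -0.94 ± 0.18 with the P number (adjusted p = 0.0335) and -0.97 ± 0.66 without it (adjusted p = 1). The call held in 2 of 9 fits that left out a library, those without 1 µM P13 or 1 µM P14, and reached an adjusted p of 0.140 in the others. Over 8 other settings it ran from 0.00686 to 0.162, and it was 0.110 with a term for gene length. Dnah11 overlaps Cdca7l on the opposite strand, and the strand setting of the counting is not given. Cdca7l had a log2 fold change of 0.14 ± 0.11 (adjusted p = 0.466), and sharing of reads with Dnah11 was not tested.

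**Figure D2:**
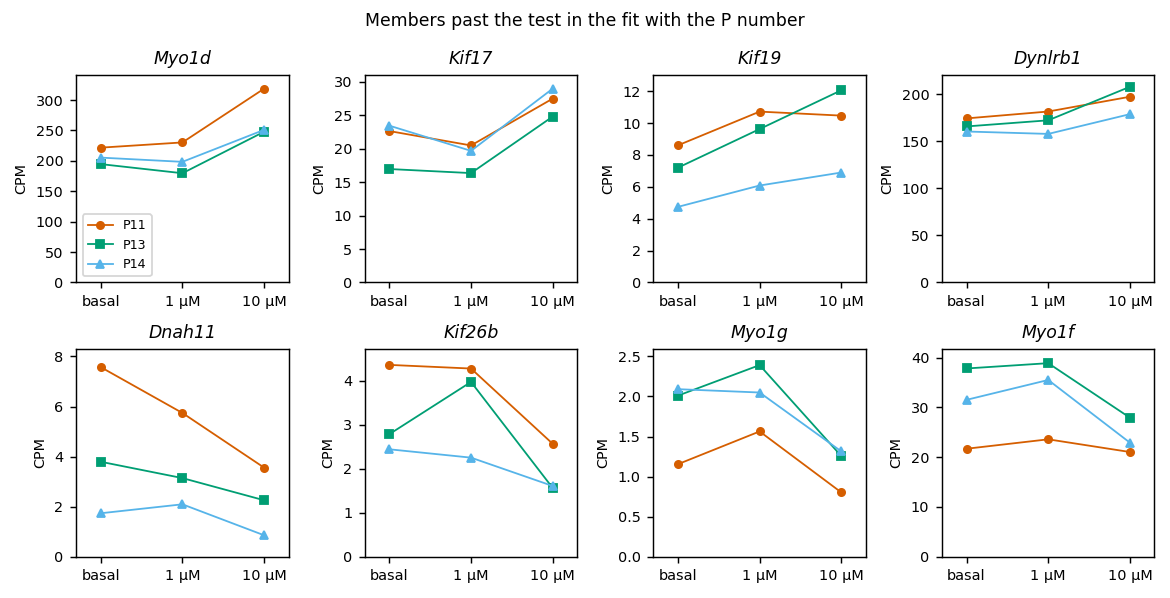
CPM by dose for the 8 motor genes called in a comparison of doses in the fit with the P number, with 1 line for each P number. Myo1d, Kif17 and Dynlrb1 are higher at 10 µM than in basal cells in all 3 lines, and Dnah11 lower in all 3.

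By group of motors, the 13 mitotic kinesins had no call in edgeR, with a median log2 fold change of 0.14 with the P number. The direction differed between P numbers. Their summed level at 10 µM was 155 CPM against 194 CPM in basal P11, but 360 against 253 CPM in P13 and 390 against 359 CPM in P14. The 7 cytoplasmic dynein chains had no call either, at a median of 0.01, and neither had the 4 kinesin light chains, at 0.01. All 6 dynein light chains had a log2 fold change above 0, with a median of 0.19, beside 7231 of the 15321 genes tested. Dynlt1, Dynlt3 and Dynlrb2 were higher in only 2 of the 3 P numbers. These 6 are all among the 20 shortest motor genes, whose values are given with gene length below. In edgeR only Dynlrb1 passed. Dynll2, the second LC8 chain, had 0.26 ± 0.07 (adjusted p = 0.0800), but DESeq2 with the P number called it (adjusted p = 0.0108), and over 9 other settings with the P number the adjusted p ran from 0.0108 to 0.165. Dynll1 had 0.18 ± 0.06 (adjusted p = 0.138).

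The class I myosins divided, with Myo1d higher and the 5 others below 0, at a median of -0.28 over the 6. Myo1e, a myosin of endocytic sites and podocytes, had 22.2, 17.8 and 18.4 CPM at 10 µM, against 23.4, 25.9 and 25.2 CPM in basal cells. These groups did not overlap, but at -0.36 ± 0.10 Myo1e missed the threshold in edgeR (adjusted p = 0.0918). DESeq2 with the P number called it (adjusted p = 0.0422), and over 9 other settings the adjusted p ran from 0.0422 to 0.163. Myo1c, a widely expressed member that recycles membrane proteins, had -0.25 ± 0.08 (adjusted p = 0.107). The 2 class I myosins of blood and immune cells were also below 0 without passing, Myo1g at -0.63 ± 0.18 (adjusted p = 0.0879) and Myo1f at -0.32 ± 0.09 (adjusted p = 0.0980).

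The 15 tested myosins outside class I had no call in edgeR, at a median of -0.14. Myo10, the motor of filopodia, had -0.31 ± 0.08 (adjusted p = 0.0740). It was called with the P number by DESeq2 (adjusted p = 0.00844) and by edgeR with library totals (adjusted p = 0.0402), and over 9 other settings the adjusted p ran from 0.00844 to 0.311. Of the 9 tested axonemal heavy chains 7 were below 0, at a median of -0.31, and Dnah11 alone was called in edgeR. Dnah12 had 0.55 ± 0.20 (adjusted p = 0.153) and Dnah17 had 0.46 ± 0.18 (adjusted p = 0.179), while Dnah2 had -0.31 ± 0.13 (adjusted p = 0.216).

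With 1 µM bavisant against basal, no motor gene passed the edgeR test in either fit, and 0% of all genes did. Motor genes with an unadjusted p under 0.05 numbered 0 of 85 without the P number and 2 with it, against 81 and 582 of 15321 genes. DESeq2 called 5 genes without and 8 with the P number, none of them a motor gene. The 2 motor genes were Kif19, at 0.37 ± 0.11, and Myo7a, an unconventional myosin of sensory hair cells and pigment epithelium, at 0.32 ± 0.14, both with an adjusted p of 1. Kif19 had 10.7, 9.62 and 6.08 CPM at 1 µM in P11, P13 and P14, and each was above its basal partner given earlier. Fold changes were small throughout, with 80 of 85 motor genes within 0.25 of 0 on the log2 scale.

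**Figure D3:**
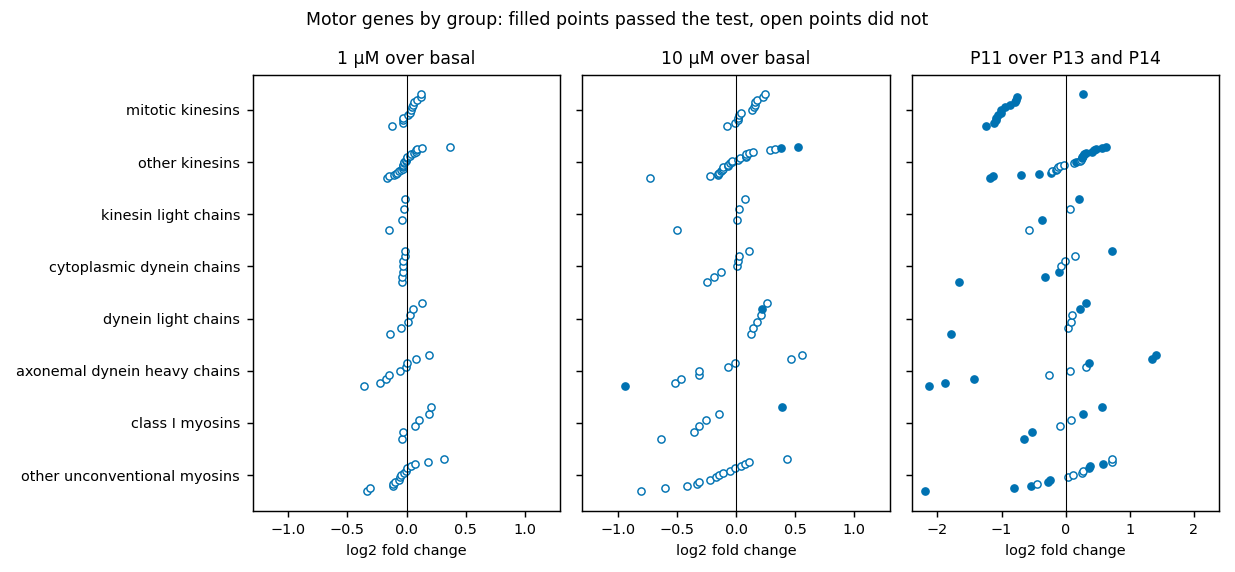
Log2 fold changes of the 85 tested motor genes by group, from the fits with the P number and dose as terms, filled where the adjusted p was under 0.05. No point is filled for 1 µM over basal, 5 are for 10 µM over basal and 57 are for P11 over P13 and P14.

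Between the doses, 10 µM bavisant against 1 µM, Myo1d and Kif17 were again higher, and Myo1g, Myo1f and Kif26b were lower. This comparison shares its 10 µM libraries with the one against basal. Without the P number no motor gene and 0% of genes were called by edgeR. In that fit 10 of 85 motor genes and 717 of 15321 genes had an unadjusted p under 0.05. DESeq2 without the P number called 66 genes and no motor gene. With the P number 5 of 85 motor genes were called (5.88%) against 4.30% of all genes. DESeq2 with the P number called 7 motor genes, adding Dnah11, Dynlrb1 and Myo1e and leaving out Myo1g. The 2 higher ones in edgeR stand beside 200 higher genes (1.31%) and the 3 lower ones beside 459 lower genes.

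Myo1d had 319, 248 and 251 CPM at 10 µM, against 230, 180 and 198 CPM at 1 µM, and all 3 libraries at 10 µM were above those at 1 µM. The log2 fold change was 0.42 ± 0.05 with the P number (adjusted p = 0.0141). It was lost without any of the 3 libraries at 1 µM or without 10 µM P14 (adjusted p up to 0.0728), and ran from 1.8e-08 to 0.0682 over 9 other settings. Kif17 had 20.5, 16.4 and 19.7 CPM at 1 µM, below all 3 libraries at 10 µM, for a log2 fold change of 0.53 ± 0.07 (adjusted p = 0.0160). It was lost without the same 4 libraries (adjusted p up to 0.0820), and ran from 4.41e-05 to 0.0682 over 9 other settings. Both genes lay at 1 µM close to their basal levels, with log2 fold changes of 1 µM over basal of -0.04 ± 0.05 for Myo1d and -0.15 ± 0.07 for Kif17.

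Myo1g had 0.803, 1.26 and 1.31 CPM at 10 µM, against 1.56, 2.39 and 2.05 CPM at 1 µM, with between 27 and 90 reads a library. The groups did not overlap, and the log2 fold change was -0.84 ± 0.17 (adjusted p = 0.0374). Myo1f had 21.0, 27.9 and 22.9 CPM at 10 µM, against 23.6, 38.9 and 35.5 CPM at 1 µM. The groups overlapped through the P11 libraries, and the log2 fold change was -0.43 ± 0.09 (adjusted p = 0.0435). Kif26b, an atypical kinesin that does not hydrolyse ATP and is needed for the mouse kidney, had 2.57, 1.56 and 1.61 CPM at 10 µM, against 4.28, 3.98 and 2.25 CPM at 1 µM. These also overlapped, with the treated library lower in each P number, and the log2 fold change was -0.86 ± 0.18 (adjusted p = 0.0418).

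These 3 lower calls were the least stable of the comparison. Myo1g and Kif26b were lost whichever single library was left out, with adjusted p up to 0.141 for Myo1g and 0.143 for Kif26b. Myo1f held only without 10 µM P11, and its adjusted p reached 0.175 without another library. Over the other settings with the P number, the adjusted p ran from 0.0273 to 0.131 for Myo1g, from 0.00357 to 0.117 for Myo1f and from 0.0227 to 0.122 for Kif26b.

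At 10 µM against 1 µM, microglial markers were lower in the same libraries as the immune class I myosins. Their 18 genes summed to 798, 958 and 805 CPM at 10 µM in P11, P13 and P14, against 910, 1164 and 1100 CPM at 1 µM, and 6 of the 18 were called lower, with a median log2 fold change of -0.35. Itgam, an integrin of microglia, had -0.58 and Aif1, a calcium-binding protein of microglia, had -0.42. In basal cells the 18 markers summed to 791, 1119 and 986 CPM in P11, P13 and P14, so in P11 the sum at 10 µM was not below basal. At 1 µM over basal, 17 of the 18 were above 0, at a median of 0.12 and with 0 called. Myo1f was higher at 1 µM than in basal cells in 3 P numbers, and Myo1g in 2. The part of the microglial markers in the values of Myo1f and Myo1g was not tested.

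Markers of other cells also moved at 10 µM against basal. Of 14 oligodendrocyte markers, 8 were called higher and 0 lower, at a median of 0.33, and their summed level was 64167 to 73328 CPM at 10 µM, against 46161 to 56521 CPM in basal cells. Of the OPC markers 2 of 10 were called higher. Of 12 astrocyte markers 3 were called lower, of 14 neuron markers 4, of 18 microglial markers 2 and of 11 vascular markers 0. The part of any of these in the values of Myo1d, Kif17 and Dynlrb1 was not tested. For Kif19 and Dnah11, the 13 tested markers of ependymal cells and motile cilia had no call, at a median of -0.35. Their summed level was 98.0 to 141 CPM at 10 µM, against 68.9 to 142 CPM in basal cells. Most of that sum was a single gene, Cfap52, at 54.8 to 120 CPM over the libraries. Sntn, a protein of the cilium tip, was listed at 0 reads in every library.

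The partners of the motors mostly had no call at 10 µM against basal. Of 26 dynactin subunits and dynein adaptors 0 passed, at a median of 0.04, and 6 had an unadjusted p under 0.05. Of 18 intraflagellar transport genes 0 passed, at a median of -0.0048, with 5 at an unadjusted p under 0.05. DESeq2 and limma were not counted over these lists. Of 20 kinesin adaptors, Mapk8ip1, the scaffold that links kinesin-1 to vesicles, was higher at 0.27 ± 0.05 (adjusted p = 0.0294). Grip1, which steers Kif5 into dendrites, was lower at -0.33 ± 0.07 (adjusted p = 0.0440).

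Among the 17 genes of the class II myosin system, Mylk, the kinase of its light chain, was higher at 0.59 ± 0.08 (adjusted p = 0.0164). Among the 15 partners of unconventional myosins, Dab2, a cargo adaptor of Myo6, was lower at -0.40 ± 0.06 (adjusted p = 0.0173). Of 28 tubulins and microtubule-associated genes 3 were lower, Tuba1c at -0.55 ± 0.07, Stmn2 at -0.36 ± 0.05 and Tubb6 at -0.27 ± 0.06. Stmn2 is also on the list of neuron markers and is counted among those called lower. Among 11 genes of Mbp mRNA transport the one call was the cargo itself, Mbp, at 0.54 ± 0.07 (adjusted p = 0.0125). Mbp is also counted among the oligodendrocyte markers called higher. Its level was 24954, 27242 and 26847 TPM at 10 µM in P11, P13 and P14, against 17296, 18777 and 21343 TPM in basal cells, with no overlap. The RNA-binding and transport proteins of that list had no call.

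Motor genes differed more between P numbers than between doses. In the P11 libraries against the P13 and P14 libraries, with dose as a term, 57 of 85 motor genes were called (67.1%) against 50.6% of all genes. Of these, 24 were higher (28.2%) beside a background of 25.2%, and 33 were lower (38.8%) beside 25.4%. The median log2 fold change was -0.03 over the motor genes and -0.0014 over all genes. In size, 17 of the 85 differed by at least 1 on the log2 scale, and none did between doses.

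The mitotic kinesins were lower in P11, all but Kif24. Of the 13, 12 were called lower, with log2 fold changes between -0.76 and -1.24 and a median of -1.01 over the group. Kif11, the motor that pushes spindle poles apart, had 28.3, 26.1 and 23.9 CPM in P11 at basal, 1 µM and 10 µM. It had 40.8, 52.8 and 57.2 CPM in P13 and 62.6, 58.5 and 68.8 CPM in P14. All P11 libraries were below all others, and the log2 fold change was -1.11 ± 0.11.

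Kif2c, which takes microtubules apart at kinetochores, had 10.5, 10.5 and 8.40 CPM in P11, against 17.5 to 27.7 CPM in the other libraries, and -1.24 ± 0.15. Kif20a, which acts at the midbody as cells divide, had 16.3, 15.6 and 12.7 CPM in P11, against 23.7 to 36.7 CPM in the others, and -1.09 ± 0.14. Proliferation markers went the same way, with 19 of 22 lower and 0 higher in P11, at a median of -0.92. Their summed level was 546 to 702 CPM in P11, against 796 to 1200 CPM in P13 and P14. None of these markers was called at 10 µM against basal.

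Kif24, listed with the mitotic kinesins, went the other way. It is a centriolar kinesin that holds back cilium assembly in human cells. It had 12.3, 10.97 and 10.3 CPM in P11, against 7.82 to 11.4 CPM in P13 and P14, with overlap. Its log2 fold change was 0.27 ± 0.09 (adjusted p = 0.0308). The call was lost in 6 of 9 fits that left out a library, those without basal P11, P13 or P14 or without 1 µM P11, P13 or P14, with an adjusted p of up to 0.169.

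Because 12 of these genes moved together, their promoters are shown for a pair of them, Kifc1 and Kif22, beside that of Kif24. Kifc1 is a minus-end kinesin of the spindle pole and Kif22 binds chromosomes, and their log2 fold changes in P11 were -1.06 ± 0.15 and -0.87 ± 0.13. The windows are the 250 bases before the start in RefSeq's annotation of GRCr8, 5′ to 3′ on the gene's strand. Capitals mark CCAAT, or ATTGG on the other strand, and the cell cycle homology region (CHR) letters TTTGAA, or TTCAAA on the other strand, and TTCGAA, which reads the same on both. Both are known as elements of cell cycle promoters in mouse and human.
Kifc1, chr20:5000679-5000928, plus strand: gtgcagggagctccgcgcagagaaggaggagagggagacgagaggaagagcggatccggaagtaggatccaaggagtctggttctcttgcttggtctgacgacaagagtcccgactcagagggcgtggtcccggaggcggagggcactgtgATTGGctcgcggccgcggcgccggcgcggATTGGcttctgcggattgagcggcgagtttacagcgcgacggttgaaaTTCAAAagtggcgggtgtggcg
Kif22, chr1:191080879-191081128, minus strand: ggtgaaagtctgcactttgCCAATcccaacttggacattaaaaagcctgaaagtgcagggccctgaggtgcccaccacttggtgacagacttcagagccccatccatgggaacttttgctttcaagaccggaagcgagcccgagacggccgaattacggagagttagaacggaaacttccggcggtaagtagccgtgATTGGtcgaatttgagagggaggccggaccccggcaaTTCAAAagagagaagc
Kif24, chr5:61423883-61424132, minus strand: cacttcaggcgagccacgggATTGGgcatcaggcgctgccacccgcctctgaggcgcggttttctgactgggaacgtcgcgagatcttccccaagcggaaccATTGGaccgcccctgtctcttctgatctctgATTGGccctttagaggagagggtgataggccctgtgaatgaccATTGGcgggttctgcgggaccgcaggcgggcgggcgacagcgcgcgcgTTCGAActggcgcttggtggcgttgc

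In Kifc1 the CHR letters began 22 bases before the start, below 2 CCAAT matches at 70 and 99 bases. In Kif22 they began 16 bases before it, with CCAAT matches at 53 and 231 bases. Kif24 held a CHR match too, at 26 bases, with 4 CCAAT matches, so the letters were present in a gene whose RNA did not fall in P11. RefSeq had a window for 72 of the 91 motor genes and 12 of the 13 mitotic kinesins. A CHR match was found in 6 of these 12 (50%), against 17.4% of all 33469 promoters of that length. A CCAAT match was found in 8 (66.7%) against 34%, and both together in 5 (41.7%) against 6.31%. These 12 include Kif24 and lack Kif14. Among the 11 that were called lower in P11, 5 had a CHR match, 7 a CCAAT match and 4 both. Kif2c, Kif18a and Kif18b had neither, and the pair of promoters shown was chosen for holding both. Over all 72 windows the shares were 15.3% for CHR and 34.7% for CCAAT. A match describes letters and does not show that a factor binds there.

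**Figure D4:**
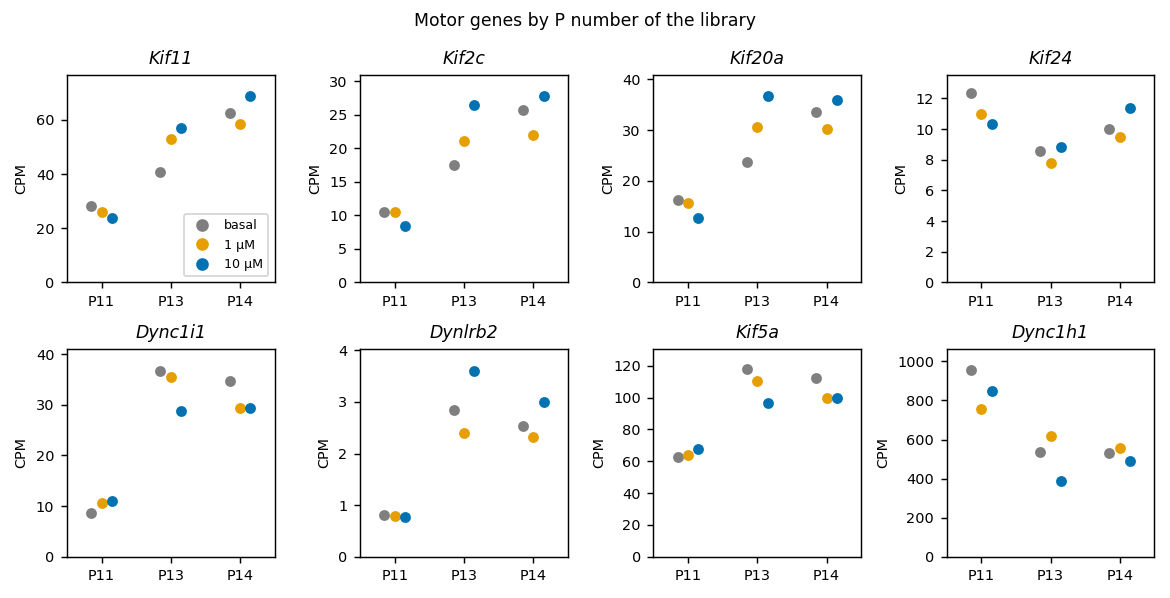
CPM of 8 motor genes by P number, 1 point a library, coloured by dose. Kif11, Kif2c and Kif20a are lowest in all 3 P11 libraries, and Dync1h1 is highest in them. The doses of P13 lie apart for some genes, as in Kif20a at 23.7 to 36.7 CPM, against 30.2 to 35.9 CPM in P14.

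Among called motor genes averaging at least 2 CPM, the largest falls in P11 were those of Dynlrb2 and Dync1i1. Dync1i1, the intermediate chain typical of neurons, had 8.69, 10.7 and 10.97 CPM in P11, against 28.8 to 36.6 CPM in P13 and P14. Its log2 fold change was -1.66 ± 0.11 (adjusted p = 1.18e-05), while the widely expressed Dync1i2 had -0.11 ± 0.04 (adjusted p = 0.0492). Dynlrb2, the roadblock chain of ciliated tissue and testis, had 0.776 to 0.813 CPM in P11, against 2.32 to 3.59 CPM in the others, for a log2 fold change of -1.79 ± 0.16.

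Kif5a, the kinesin-1 heavy chain of neurons, had 62.9, 64.2 and 67.5 CPM in P11, against 96.7 to 118 CPM in the others, and a log2 fold change of -0.70 ± 0.06. Kifc2, a minus-end kinesin found in neurons, had -1.14 ± 0.08. Neuronal markers summed to 561 to 635 CPM in P11, against 1033 to 1347 CPM in P13 and P14, and 9 of 14 were called lower and 4 higher. The part of these markers in the values of Dync1i1, Kif5a and Kifc2 was not tested.

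The cilium genes did not move as one. Dnah12 was lower in P11, at -1.43 ± 0.19, as was Kif27, a relative of Kif7, at -1.18 ± 0.17. Dnah5, an outer-arm heavy chain, had 0.385 to 0.562 CPM in P11, against 1.49 to 2.85 CPM in the others, and -2.14 ± 0.25. Dnah11 was higher in P11, at 1.34 ± 0.15. Ependymal and motile cilium markers summed to 68.9 to 98.0 CPM in P11, against 116 to 142 CPM in the others, with 7 of 13 called lower and 0 higher. Most of that sum was Cfap52, and the next highest, Ccdc39, reached 8.43 CPM. The part of these markers in the Dnah values was not tested.

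Of the 5 largest rises in P11 among called motor genes averaging at least 2 CPM, Dnah11 was given above, and the others follow. Dync1h1 had 957, 758 and 847 CPM in P11, against 387 to 619 CPM in P13 and P14, with no overlap, and a log2 fold change of 0.73 ± 0.11 (adjusted p = 0.000878). Kif1b had 0.57 ± 0.08 and Myo9a, a class IX myosin, had 0.58 ± 0.13. Kif26b had 0.64 ± 0.16 (adjusted p = 0.00935), which missed the threshold without basal P11 (adjusted p = 0.0519). Oligodendrocyte markers were higher in P11 too, with 12 of 14 called higher and 1 lower, and vascular markers likewise, with 9 of 11 higher. Their part in these values was not tested.

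The relation of the dose difference to gene length varied between P numbers. Across the 85 motor genes, the log2 difference of 10 µM minus basal had a Spearman correlation with gene length of -0.53 in P13, -0.25 in P14 and -0.05 in P11. Over all 15321 genes the same values were -0.32, -0.07 and -0.20. For 1 µM minus basal, the motor genes had -0.22 in P13, 0.28 in P14 and -0.14 in P11. These describe single pairs of libraries, whose genes share depth and preparation. In P13, the 20 longest motor genes had a median difference of -0.43, with 16 below 0, and the 20 shortest had 0.20, with 5 below 0. In P14 the 20 longest had -0.12, with 14 below 0, and the 20 shortest 0.05, with 9 below 0.

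The long Kif1b had 909 CPM in the 10 µM P13 library, against 1112 CPM in basal P13. Dync1h1 had 387 CPM against 537 CPM in the same pair, and Kif21b, a kinesin of axons and dendrites, 110 CPM against 196 CPM. In P11 the sign for Kif1b and Kif21b was the opposite, at 0.09 for Kif1b and 0.27 for Kif21b. With gene length as a trend in each library, a setting chosen after the data were seen, 4 motor genes were called at 10 µM against basal. These were Myo1d, Kif17, Kif19 and Kif13a, while Dynlrb1 (adjusted p = 0.0628) and Dnah11 (adjusted p = 0.110) were not.

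**Figure D5:**
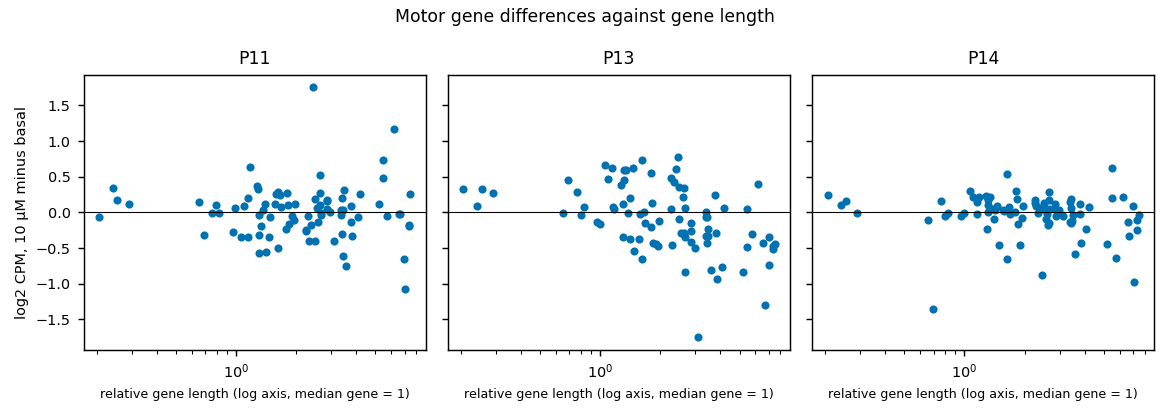
Log2 CPM difference of 10 µM minus basal for the 85 tested motor genes, against gene length relative to the median gene (log axis), in each P number. Longer genes lie lower in P13, with a Spearman correlation of -0.53, and not in P11, at -0.05.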

How the data were processed

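Libraries were made with the Illumina Stranded mRNA Prep kit and sequenced as 75-base reads, per the labels' protocols. The submitters' processing notes name FastQC, Trimmomatic, DRAGEN and Picard and the genome build rn6, and give no versions. Annotation and strand setting are not given. The authors deposited 2 tables, of estimated counts per gene (92.7% of them whole, within 1e-06) and of TPM per gene, and no replicate was pooled. Estimated counts were rounded. Identifiers with no symbol held at most 0.0111% of reads.

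Genes were kept by edgeR's filter (minimum count 10, minimum total 15), scaled by TMM and tested over all 9 libraries with the quasi-likelihood F test (edgeR 4.0.16, limma 3.58.1, R 4.3.3), with Benjamini-Hochberg adjustment over all 15321 genes and a threshold of 0.05. CPM are TMM-scaled. DESeq2 1.42.0, limma on log2(TPM + 1), other scalings and filters, and each library left out were alternatives. Tests were run on simulated data in which the P number acted alike at every dose. The pass mark covered only the fit with the P number and changes larger than any called between doses in motor genes. It set no limit on false calls. Libraries of a group differed by more than counting error, with a chi-square of at least 23.3 for each degree of freedom.

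The P number was added as a block after a check of pairing. Same-numbered libraries deviated together in all 9 pairs (correlations 0.319 to 0.772), against -0.708 to 0.193 for the 18 pairs with different numbers. The pairing rests on this check, since the labels give only the numbers.

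The motor genes, the gene lists and the contrast of P11 with P13 and P14 were chosen with earlier results of these data known. Of 276 listed symbols 263 were found. Genes named are those called in a comparison of doses, the 3 highest of each group, a core of 40, and for P11 the 5 largest rises and falls averaging at least 2 CPM. Outside that rule, Kif13a, Kif21b, Kif24, Kifc2 and Myo1c were chosen after their values were seen. Kif14, Kif18a and Kif18b are named only for their promoter windows, and the 6 untested genes are named as a full account. Relative length was taken from the ratio of counts to TPM. Promoters came from RefSeq (GRCr8), all 91 symbols matched its gene table, and no coordinates were converted between builds.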

Additional observations from a re-analysis of the deposited data

How the results depend on the processing

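Calls between doses depended on the block by P number. At 10 µM against basal, edgeR without the block called 0 genes and DESeq2 64. With the block, edgeR called 607 genes and 5 motor genes. Its alternatives gave, as genes and motor genes, 609 and 5 with RLE size factors, 834 and 5 with library totals, 715 and 5 with no count filter, 736 and 5 with a mean of at least 100 reads, 964 and 8 with DESeq2, 502 and 1 with limma on TPM, and 684 and 4 with a length trend. Library totals left 131 of the 834 higher, against 202 of the 607. At 10 µM against 1 µM, DESeq2 without the block called 66 genes. The pairs with the block were 659 and 5 in edgeR, 656 and 5 with RLE, 926 and 7 with totals, 760 and 7 with no filter, 726 and 5 with a mean of 100 reads, 987 and 7 with DESeq2, 453 and 2 with limma, and 788 and 8 with the length trend. At 1 µM against basal DESeq2 called 5 genes, and 8 with the block.

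Without all P11 libraries, the blocked counts were 10 genes and 0 motor genes at 10 µM against basal, and 110 and 2 (Myo1d and Myo1f) against 1 µM. With only the groups compared, the block gave 0. Leaving out 1 library, the counts without the block were 0. With the block, at 10 µM against basal, they were 0 without basal P11, 1 without basal P13, 57 without basal P14, 260, 581 and 261 without 1 µM P11, P13 and P14, and 529, 158 and 64 without 10 µM P11, P13 and P14, with 0 to 6 motor genes. At 10 µM against 1 µM they were 420, 435 and 309 without basal P11, P13 and P14, 31 without 1 µM P13, 651 without 10 µM P11, 182 without 10 µM P13 and 0 otherwise, with 0 to 4 motor genes. At 1 µM against basal they were 0 to 2. For P11 against P13 and P14 they ran from 6053 to 8055 genes and 48 to 61 motor genes, and the other settings gave 6804 to 8029 genes and 50 to 60 motor genes. The cause of these differences was not tested.

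Some log2 fold changes, none of them called in that comparison, turned sign. At 1 µM against basal, Dynlrb1 was -0.015 with the block and a length trend, and Dnah11 0.0039 with the block without all P11. Leaving out 1 library without the block gave -0.13 to 0.049 for Myo1d, -0.012 to 0.085 for Dynlrb1, -0.73 to 0.41 for Dnah11, -0.034 to 0.42 for Kif26b, -0.036 to 0.34 for Myo1g and -0.086 to 0.30 for Myo1f. With the block, Dynlrb1 was -0.0023 without basal P13 and Kif26b -0.091 without 1 µM P13. At 10 µM, without the block, the ranges were -0.61 to 0.012 for Myo10 against basal and -0.052 to 0.36 for Kif19 against 1 µM. In P11, Kif26b missed the threshold with no dose term (0.62, adjusted p = 0.102), and Kif24 with library totals (0.21, adjusted p = 0.0652). The 3 libraries a group, and low reads for genes such as Myo1g, limit what could be called.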
